A study of Mus musculus with 288 samples.

Results

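Gcg encodes preproglucagon, the precursor from which gut endocrine cells cut glucagon-like peptides 1 and 2, and Pyy encodes peptide YY, a hormone of the same cells that lowers food intake. The 2 genes were followed here, as the rows of their gene identifiers among 46078 mouse genes, in every single cell of the mouse upper small intestine with at least 20000 reads on mouse genes and at most 20% of those reads on mitochondrial genes. Of 288 cells, 250 passed: 75 came from pool SLX-11175, another 87 from SLX-11179 and 88 from SLX-9703. The tissue came from 3 male GLU-Venus mice aged 20 to 21 weeks, in which the proglucagon promoter drives the yellow fluorescent protein Venus, and there was no treatment and no control genotype. The labels call every cell an L-cell and give its pool but neither its mouse nor its fluorescence, and the study's methods say that 1 mouse gave Venus-positive cells alone and that Venus-negative cells were collected as well. The sort used a reporter of Gcg itself, so the shares of cells below describe the sorted cells and not the tissue. The pools are the replicates (n = 3), since cells of a pool are not independent of each other.

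PPG-cells, the enteroendocrine cells that express preproglucagon, sense nutrients at the gut lumen and release their peptides by exocytosis of dense-core granules. The enzyme prohormone convertase 1/3, the product of Pcsk1, cuts preproglucagon into the glucagon-like peptides, and the chromogranins help to form the granules. After release, dipeptidyl peptidase 4 removes the first residues of glucagon-like peptide 1 and of peptide YY. PYY belongs to the pancreatic polypeptide fold family with pancreatic polypeptide and neuropeptide Y, and is classically known from L-cells, which become more frequent towards the distal gut.

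In the mm10 genome build Gcg (ENSMUSG00000000394) lies on the minus strand of chromosome 2, from position 62474530 to 62483650, and Pyy (ENSMUSG00000017311) on the minus strand of chromosome 11, from 102106676 to 102107832. No other annotated gene overlaps either of them, which matters because the reads carry no strand. The 250 bases before the start of each gene are shown because the levels of both genes moved together across cells. They were taken from RefSeq (GRCm38.p6, the same assembly), are written 5′ to 3′ on the strand of the gene, and have 3 motifs in capitals, searched on both strands: TATAA, the core of a TATA box, TAAT, the core of many homeodomain sites, and CANNTG, the E-box.
Gcg promoter, chr2:62483654-62483903, minus strand: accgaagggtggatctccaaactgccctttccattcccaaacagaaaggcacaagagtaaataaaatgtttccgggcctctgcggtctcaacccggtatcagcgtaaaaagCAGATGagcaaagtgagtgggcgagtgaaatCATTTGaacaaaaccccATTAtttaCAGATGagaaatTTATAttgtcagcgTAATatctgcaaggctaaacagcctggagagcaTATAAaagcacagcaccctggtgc
Pyy promoter, chr11:102107833-102108082, minus strand: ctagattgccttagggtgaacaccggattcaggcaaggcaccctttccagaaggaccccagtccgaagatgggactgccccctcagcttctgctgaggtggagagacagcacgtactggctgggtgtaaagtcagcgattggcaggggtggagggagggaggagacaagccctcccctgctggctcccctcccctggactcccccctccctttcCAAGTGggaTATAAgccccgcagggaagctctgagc
Gcg held TATAA in both orientations (2 matches), TAAT 2 times and CANNTG 3 times, and Pyy held TATAA and CANNTG 1 time each and TAAT 0 times. In both promoters the forward TATAA began close to the start of transcription, 24 bases before it in Gcg and 27 bases in Pyy. Among 32817 promoters of the same length, 22.8% held TATAA, 54.9% TAAT and 66.2% CANNTG on either strand, so the last 2 are common in any promoter. These matches describe letters only, and none overlaps another. Pyy has 2 listed promoters, and only the 1 at the annotated start of the gene is shown and counted here.

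Levels are given in CPM, the reads of a gene scaled to 1000000 reads on mouse genes of the same cell. The passing cells held 21345 to 504833 such reads in pool SLX-11175, 20121 to 779919 in pool SLX-11179 and 319966 to 4368674 in pool SLX-9703. In the median cell 1 read was worth 19, 14.1 and 0.506 CPM, respectively, so low Pyy could be seen only in the deep pool SLX-9703. Against their label, 17, 14 and 4 cells of the pools had chromogranin A and B (Chga and Chgb) summing to less than 100 CPM, and these granin-low cells are kept in the levels below and left out where stated. Free RNA or carried-over reads can place reads in cells that do not express a gene, which was not tested here. Granin-low cells held a Gcg read in 12 of 17, 8 of 14 and 4 of 4 cases. Their Gcg reached at most 199, 73.9 and 208 CPM, and values of this size in other cells are not read as expression. The study states that the deeply sequenced mouse gave Venus-positive cells, so the granin-low cells of SLX-9703 may express Gcg. The 208 CPM there is a working limit and not a measured background.

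Gcg ran in every pool from the level of granin-low cells to more than 200000 CPM, with many cells near the low end and a minority high. In pool SLX-11175 it ran from 0 to 227440.0 CPM with a median of 302 CPM, in pool SLX-11179 from 0 to 271139 CPM with a median of 128 CPM, and in pool SLX-9703 from 25.2 to 361155 CPM with a median of 615 CPM. Cells with at least 10000 CPM, called Gcg-high here, made up 19 of 75 cells (25.3%, exact Clopper-Pearson 95% interval 16 to 36.7), 19 of 87 (21.8%, 13.7 to 32) and 20 of 88 (22.7%, 14.5 to 32.9), a mean of 23.3% ± 1.82 (SD, n = 3 pools). These intervals cover counting error only. The high cells held 97.6%, 98.1% and 97.2% of the summed Gcg CPM of their pool, and their median Gcg was 76441, 97364 and 153918 CPM. Under 1000 CPM, called Gcg-low, were 45, 57 and 51 cells, with medians of 46.8, 59.7 and 207 CPM, and between the limits 11, 11 and 17 cells.

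The low point between both groups was shallow in all pools and deepest in SLX-9703. A smoothed density of log10(CPM + 1) had 2 peaks in each pool, at 1.96 and 4.71, 1.91 and 4.81, and 2.38 and 5.12 on that scale. The low peaks, at 90.2, 80.3 and 239 CPM, lay below the highest granin-low value in SLX-11175 (199 CPM) and above it in SLX-11179 (73.9 CPM) and SLX-9703 (208 CPM). The low group thus mixed cells at the granin-low level with cells above it, among them the 11, 11 and 17 cells between 1000 and 10000 CPM. The trough lay at 10232, 12302 and 24546 CPM, and its height was 0.925, 0.923 and 0.772 of the lower peak, where 1 would mean no trough. A mixture of 2 normal curves described Gcg better than 1 curve in every pool, by 13.9, 10.5 and 25.8 units of the Bayesian information criterion. The bimodality coefficient, built from skewness and kurtosis, was 0.472 and 0.462 in pools SLX-11175 and SLX-11179, below the 0.556 of a uniform distribution, and 0.651 in SLX-9703, above it. So the measures differed on 2 groups in the shallow pools and not in the deep pool. Few cells sat near the limit of 10000 CPM: 3, 4 and 9 were within 2-fold of it. In pool SLX-11175 the nearest cells on either side had 7531 and 17954 CPM, and in pool SLX-9703 they had 9545 and 11122 CPM.

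Reads of Pyy were absent or few in most cells, and Pyy was high in a minority. No read of Pyy was found in 46 of 75, 62 of 87 and 20 of 88 cells, and the medians were 0, 0 and 2.01 CPM. The highest cells had 40926.5 CPM in pool SLX-11175, 13782 CPM in pool SLX-11179 and 4297 CPM in pool SLX-9703. When every cell was thinned to 20000 reads, a Pyy read remained in 33.3%, 20.7% and 29.5% of cells, against 38.7%, 28.7% and 77.3% before thinning, so the deep pool did not stand apart at equal depth. At least 100 CPM, called Pyy-positive, was reached by 18 cells (24%, 95% interval 14.9 to 35.3), 15 cells (17.2%, 9.98 to 26.8) and 20 cells (22.7%, 14.5 to 32.9), a mean of 21.3% ± 3.59 (SD, n = 3 pools). Granin-low cells had at most 1.98, 75.8 and 1.06 CPM of Pyy, below that limit. Among cells with a read, 2 normal curves described Pyy better than 1 in the deep pool (by 35.8 units, 68 cells). In pools SLX-11175 (29 cells) and SLX-11179 (25 cells) it did not, with differences of -4.52 and -2.92 units. No read of the relatives of Pyy was found. Ppy, whose gene lies 5.36 kb from Pyy, and Npy had 0 reads in 250 cells, which allows a share of cells with a read of up to 1.2%. Low levels of either could be missed in the shallow pools.

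**Figure D1:**
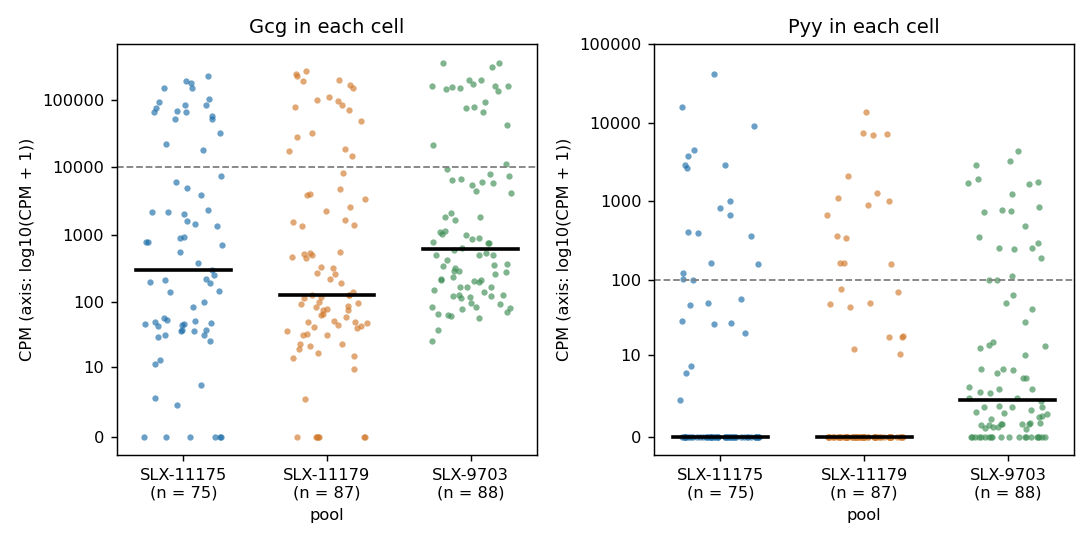
CPM of Gcg (left) and Pyy (right) in each of the 250 cells by pool, on a log10(CPM + 1) axis; black bars are medians and dashed lines the limits of 10000 and 100 CPM. Gcg shows a dense low group and a band of high cells in each pool, and most cells of SLX-11175 and of SLX-11179 sit at 0 for Pyy.

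Per base of exon, the mean level of Gcg was above that of Pyy in every pool. Divided by exon length (1494 bases for Gcg and 631 bases for Pyy, all annotated exons merged), the mean level over cells was 16302.5 CPM per kb for Gcg and 1841 for Pyy in pool SLX-11175. The same means were 16970.0 and 795 in pool SLX-11179, and 24045 and 441 in pool SLX-9703, so Gcg exceeded Pyy 8.85, 21.3 and 54.5 times. Without the cell of each pool that was highest in Pyy, a check added after the values were seen, the mean of Gcg exceeded that of Pyy 16.7, 31.2 and 58.7 times. In cells high for both genes the ratio of Gcg to Pyy per kb had medians of 78.7, 34.6 and 71.9, and it ran from 1.13 to 770.0 over the pools. Per kb, Pyy was above Gcg in 8, 5 and 3 of the 70, 81 and 88 cells with a read of either, a tally of any read that includes cells with Gcg at the granin-low level and no Pyy read.

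Gcg and Pyy rose together across cells, yet only in part of the Gcg-high cells was Pyy high. Spearman's rho over the cells was 0.535 in pool SLX-11175, 0.465 in pool SLX-11179 and 0.517 in pool SLX-9703, a mean of 0.505 ± 0.0361 (SD, n = 3 pools), given as a description since both values of a cell share its denominator and cells are not replicates. Of Gcg-high cells, 11 of 19 (57.9%), 9 of 19 (47.4%) and 12 of 20 (60%) were Pyy-positive. Of cells between 1000 and 10000 CPM of Gcg, 36.4%, 27.3% and 29.4% were, and of Gcg-low cells 3 in each pool, or 6.67%, 5.26% and 5.88%. The order was the same in each pool and the steps exceeded the SD over pools, with means of 55.1% ± 6.77, 31% ± 4.75 and 5.94% ± 0.703. After thinning to 20000 reads a Pyy read remained in 68.4%, 47.4% and 65% of Gcg-high cells and in 13.3%, 8.77% and 13.7% of Gcg-low cells. Both limits were met by 32 of 250 cells (12.8%).

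Within the Gcg-high cells the level of Gcg said little about the level of Pyy in pool SLX-11179 and more in the other pools, where rho was 0.337 (SLX-11175) and 0.472 (SLX-9703) against -0.00911. Pyy in these cells ran from 0 to 15864 CPM, 0 to 7344 CPM and 0 to 4297 CPM, with medians of 121, 17.9 and 249 CPM. No Pyy read was found in 4, 8 and 2 of them, the last in the deep pool, where 1 read was worth 0.506 CPM in the median cell. Within Gcg-low cells rho was 0.125, 0.264 and 0.430. Their median Gcg lay below the highest granin-low value of each pool, and 37 of 45, 48 of 57 and 14 of 51 had no Pyy read. This rho thus ranks many ties and values not read as expression. Depth itself went weakly with either gene: rho with the reads per cell was 0.00209, 0.0294 and 0.289 for Gcg and 0.0625, -0.0125 and 0.0483 for Pyy. The number of genes detected went with Gcg at 0.416, 0.195 and 0.210, and its part in the relation was not tested.

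**Figure D2:**
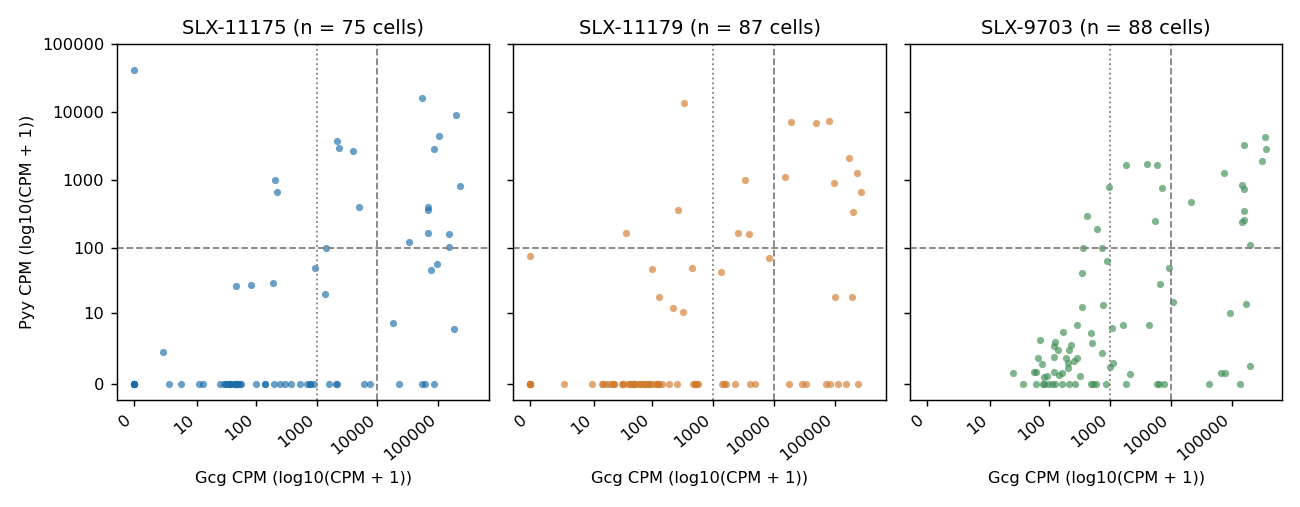
Pyy against Gcg in each cell, 1 panel for each pool, both axes log10(CPM + 1); dashed lines mark 10000 CPM of Gcg and 100 CPM of Pyy and dotted lines 1000 CPM of Gcg. The upper right holds 11, 9 and 12 cells and the upper left of the dotted line 3 cells in each pool.

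The single cell with the most Pyy in each of the 2 shallow pools had hardly any Gcg, unlike the cells next to it in rank. The cell with 40926.5 CPM of Pyy (2336 reads) in pool SLX-11175 had no Gcg read, and the cell with 13782 CPM of Pyy (1096 reads) in pool SLX-11179 had 26 Gcg reads, or 327 CPM. By contrast Gcg stood at 52866 and 194300.0 CPM in the next 2 cells by Pyy of SLX-11175 and at 79752 and 18955 CPM in those of SLX-11179, and the top Pyy cell of the deep pool had 352258 CPM. Both cells with little Gcg were rich in secretin (Sct, 141596 and 133244 CPM) and neurotensin (Nts, 194243 and 24584 CPM), a hormone of the small intestinal lining. In all, 9 cells were Pyy-positive with Gcg under 1000 CPM. Nts reached 10000 CPM in 3 of these 9 cells, whose median was 1709 CPM, and in 0 of the 32 cells high for both genes, whose median was 23.5 CPM and highest value 1689 CPM. Sct had a median of 130651 CPM in the 9 cells and 7062 CPM in the 32 cells. Cholecystokinin (Cck) was high in both, with medians of 79751 and 132126 CPM. These cells were picked by their Pyy and Gcg, so the values describe them and were not tested. A single cell mattered to sums: the cell highest in Pyy gave 47%, 31.6% and 17.5% of all Pyy of its pool. Gcg-high cells held 39.6%, 63.4% and 68.1% of the summed Pyy CPM with that cell and 74.7%, 92.7% and 61.3% without it.

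Ranges of cells drawn by other genes showed where both genes sat. In order, cells with Chga and Chgb summing to under 100 CPM were set apart as granin-low, then cells with at least 10000 CPM of Gip, the hormone of K-cells, as Gip-high, then cells with at least 100 CPM of Pzp, a protease inhibitor, as Pzp-positive, and the rest were the other granin-positive cells (32, 45 and 45 cells of the pools). Gcg had medians of 14999, 3389 and 5888 CPM in the other granin-positive cells, 778, 135 and 292 CPM in the Pzp-positive cells (15, 22 and 28 cells), 46.4, 42.7 and 219 CPM in the Gip-high cells (11, 6 and 11 cells) and 13, 5.85 and 158 CPM in the granin-low cells. The order of the ranges was the same in each pool. In SLX-11175 and in SLX-11179 the Gip-high cells had medians within the span of the granin-low cells, whereas 1 or 2 cells in each pool were both Gip-high and Gcg-high. Gcg-high cells made up 16 of 32, 18 of 45 and 19 of 45 other granin-positive cells and 1 of 15, 0 of 22 and 0 of 28 Pzp-positive cells.

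On sums of counts per pool, Gcg was higher in the other granin-positive cells than in the Pzp-positive cells by 6.11 ± 0.71 on the log2 scale (SE, n = 3 pools, edgeR adjusted p = 0.00562), 1 of 4 calls among 11211 genes (0.0357%, with 0.00892% higher and 0.0268% lower). Without pool SLX-11175 (log2 difference 7.0, adjusted p = 0.0978), without pool SLX-11179 (5.26, adjusted p = 0.379) and with limma on mean log2 values (3.88, adjusted p = 0.0765) this call was lost. Against granin-low cells Gcg was higher by 10.73 ± 0.85 (adjusted p = 9.71e-06) and Pyy by 10.95 ± 1.75 (adjusted p = 0.00172), where 8.56% of all genes were called, 6.64% higher and 1.93% lower. The sort used a reporter of Gcg, and the labels do not tell which granin-low cells were sorted as Venus-negative. So the sort may have fixed this Gcg difference in advance, and whether it did was not tested. The size of the Pyy difference rests on 6 Pyy reads in all granin-low cells (1, 2 and 3 reads, or 0.418, 0.907 and 0.309 CPM of the sums), and whether these were carried over was not tested. The ratio of the sums was 6720.0 (exact 95% counting interval 1206 to 265470.0) in SLX-11175, 1267 (351 to 10469) in SLX-11179 and 2069 (708 to 10032) in SLX-9703. Against Gip-high cells neither member passed the test, with differences of 2.30 ± 0.59 for Gcg (adjusted p = 0.221) and 7.04 ± 1.43 for Pyy (adjusted p = 0.0945), and 0.0803% of genes were called (0.0446% higher and 0.0357% lower). Against Pzp-positive cells Pyy differed by 4.74 ± 1.36 (adjusted p = 0.773). Pyy had medians of 130, 0 and 15.3 CPM in the other granin-positive cells and 0, 0 and 1.08 CPM in the Pzp-positive cells. The sums of Pyy in Gip-high cells were 10.2, 26.1 and 0.596 CPM, against 2806, 1150.0 and 639 CPM in the other granin-positive cells.

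**Figure D3:**
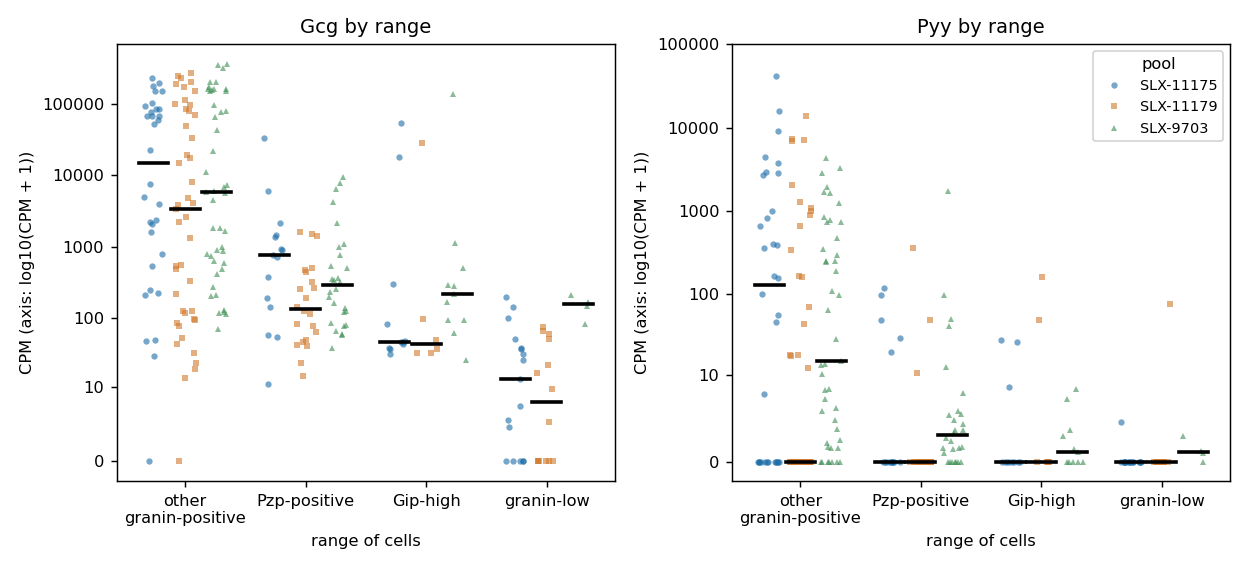
CPM of Gcg (left) and Pyy (right) in each cell, by range of cells and pool, on a log10(CPM + 1) axis; black bars are medians. Gcg is highest in the other granin-positive cells in every pool, with medians of 14999, 3389 and 5888 CPM, and granin-low cells reach at most 208 CPM.

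Genes that follow Gcg were sought by Spearman's rho over the cells of each pool, and a gene was called a follower at 0.3 or more in all 3 pools. Of 8541 genes with a read in at least 10% of the cells of every pool, 74 (0.866%) followed Gcg and 0 went against it at -0.3 or less in all pools. The median rho over all genes was 0.0797. No p-value is attached, since cells are not replicates. At the head stood Chgb, the granule protein chromogranin B, with rho of 0.772, 0.677 and 0.619. Parm1, a mucin-like membrane protein, followed with 0.603, 0.710 and 0.539, and Ghrl, the precursor of ghrelin, with 0.563, 0.589 and 0.508. Anpep, the brush border enzyme aminopeptidase N, had 0.632, 0.538 and 0.507, and Chga had 0.606, 0.481 and 0.578. Cyp4b1, a cytochrome P450, had 0.480, 0.530 and 0.581. Next came Fars2, a mitochondrial phenylalanine tRNA synthetase (0.580, 0.465 and 0.584), Pyy itself, Ffar1, the receptor of long-chain fatty acids (0.654, 0.489 and 0.448), the ETS transcription factor Etv1 (0.676, 0.436 and 0.520), Fam183b (0.526, 0.498 and 0.436) and Gmds, an enzyme of GDP-fucose synthesis (0.633, 0.436 and 0.547). Pyy thus ranked 8 of 8541 by its lowest rho. Ghrl (2 genes), Anpep (1), Fars2 (11) and Gmds (4) overlap other annotated genes, and reads without strand cannot be told apart there.

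Of the granule and prohormone processing genes besides the members, 10 of 11 could be tested and 10 had a positive rho with Gcg in every pool, with a median of 0.411. Over all 8541 genes 43.3% were positive in every pool, so many genes besides those of the lists shared this direction. Of these, 4 (Chgb, Chga, Cpe and Pcsk1) were followers, against 0.866% of all genes, the share beside which the follower counts of the lists below stand as well. Cpe, the carboxypeptidase that trims cut prohormones, had 0.604, 0.551 and 0.372, and Pcsk1 had 0.464, 0.444 and 0.310. Pcsk2, whose product makes glucagon in the pancreas, had a read in only 5, 3 and 13 cells. Granin-low cells were chosen for their low Chga and Chgb, which are members of this list. With granin-low cells left out, 31 genes followed Gcg and 6 went against it.

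Of 12 transcription factors with enough reads, 9 had a positive rho with Gcg in every pool, against 43.3% of all genes, and 3 were followers (median 0.235). Beside Etv1 these were Isl1, a LIM homeodomain factor known to bind the Gcg promoter (0.422, 0.354 and 0.384), and Neurod1 (0.585, 0.430 and 0.301). Granin-low cells are kept in these values. Pax6, which activates Gcg in the pancreas, had 0.448 and 0.236 in the shallow pools and -0.020 in the deep pool. With granin-low cells kept in, 12 of 15 receptors, channels and transporters were positive in every pool, beside the same 43.3% of all genes. Of the 15, 5 followed Gcg, beside 0.866% of all genes (median 0.340). These were Ffar1, Gpr119 (0.423, 0.532 and 0.491), a receptor of lipid amides and monoacylglycerols, Ffar2 (0.469, 0.321 and 0.368), a receptor of short-chain fatty acids, the guanylin receptor Gucy2c (0.487, 0.435 and 0.353) and Abcc8, a subunit of the ATP-sensitive potassium channel (0.576, 0.509 and 0.332). The calcium-sensing receptor Casr had -0.043, -0.145 and -0.177. Gpbar1, Sstr2, Trpa1 and Kcnj11 had too few cells with a read.

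Of 7 other hormone and amine genes with enough reads, Ghrl and Cck (0.698, 0.678 and 0.415) followed Gcg. Tph1, which makes serotonin from tryptophan, had -0.095, -0.263 and -0.373. Nts had 0.078, -0.045 and -0.277, Gip had 0.064, 0.070 and -0.161, and Sct had 0.453, 0.348 and 0.110, values that changed in sign or size from pool to pool. Cd44, a hyaluronan receptor at the cell surface, had the lowest rho by the highest of its 3 values (-0.294, -0.248 and -0.235). After it came Rgs4, a regulator of G protein signalling (-0.226, -0.217 and -0.282), Krt19, a keratin of ductal and crypt epithelium (-0.211, -0.220 and -0.292), AA474408, Sh2b3, Snx20, Spc24 and Usp27x, of which the last 5 lay between -0.323 and -0.149. Reads of the peptides' receptors were rare. Of those for the products of Gcg, Glp1r had 0 reads in 250 cells, Glp2r had a read in 0, 1 and 0 cells of the pools, and Gcgr in 1, 0 and 4 cells. Of those for peptide YY and its relatives, Npy1r had a read in 0, 0 and 2 cells, Npy2r in 0, 1 and 3, Npy4r in 0, 1 and 0, and Npy5r in 1, 0 and 1.

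Pyy had fewer followers than Gcg, 7 of 8541 genes (0.082%), and 0 genes went against it. The median rho over all genes was 0.030. The followers were Gcg, Chgb (0.565, 0.418 and 0.384), Anpep (0.532, 0.357 and 0.464), Cyp4b1 (0.574, 0.379 and 0.356), Nr4a2, a nuclear receptor induced early after stimulation (0.613, 0.347 and 0.377), Bace2, an aspartic protease (0.476, 0.349 and 0.336), and Naaladl1, a gut peptidase (0.543, 0.307 and 0.314). Chga came just short, with 0.504, 0.285 and 0.351. For the same genes rho with Gcg was 0.610, 0.563 and 0.388 for Nr4a2, 0.482, 0.466 and 0.423 for Bace2, and 0.378, 0.383 and 0.355 for Naaladl1. In pool SLX-11175 Naaladl1 had a rho of 0.543 with Pyy against 0.378 with Gcg. Gpr119 reached 0.486, 0.307 and 0.251 with Pyy, and Slc15a1, the small-peptide transporter, 0.421, 0.264 and 0.233. Lowest were Gpx3, a secreted glutathione peroxidase (-0.195, -0.321 and -0.346), Sympk, Entpd8 and Rdh7, the last 3 between -0.277 and -0.180. Nts had 0.087, 0.199 and 0.121 with Pyy.

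**Figure D4:**
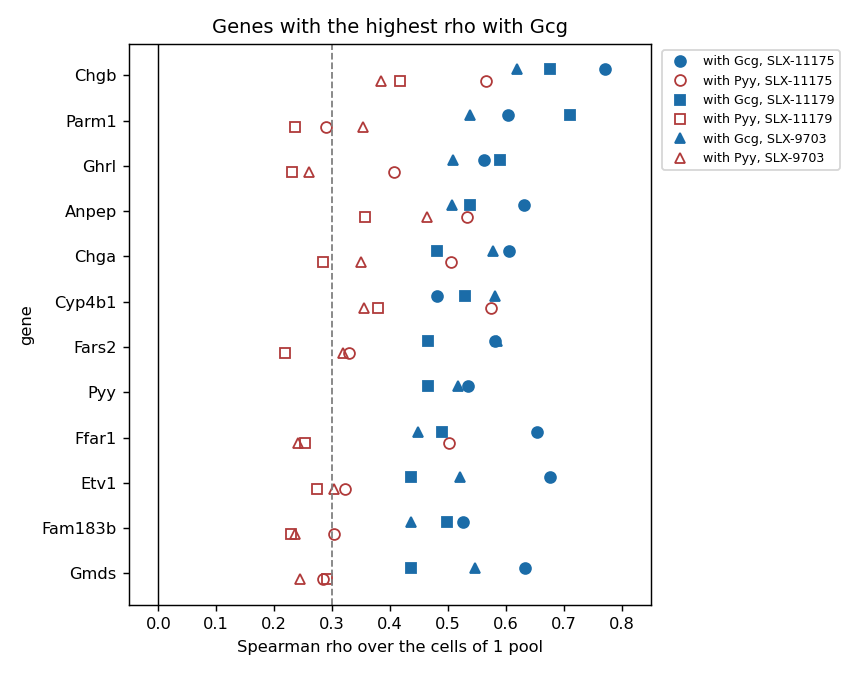
Spearman's rho over the cells of each pool for the 12 genes with the highest rho with Gcg (filled symbols), beside their rho with Pyy (open symbols); the dashed line is 0.3. Chgb leads for Gcg with 0.772, 0.677 and 0.619, and Pyy has no value with itself.

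Gcg-high cells were compared with Gcg-low cells on counts summed per pool (n = 3 sums a side), which weights cells by depth and treats the pool as a block. Gcg chose the sides, so its own values are a description: 92562, 113294 and 113281 CPM in the high sums against 243, 104 and 199.8 CPM in the low sums. CPM of sums are TMM-scaled, and fewer cells with a gene cannot be told apart from less of it per cell in a sum. Of 11714 genes, 17 (0.145%) were higher in Gcg-high cells, Gcg among them, and 43 (0.367%) were lower by edgeR at a false discovery rate of 0.05. The smallest p among the other higher genes belonged to Fap, fibroblast activation protein, a peptidase of the dipeptidyl peptidase 4 family. Fap stood at 791, 570.1 and 554 CPM in Gcg-high cells and at 132, 112 and 128 CPM in Gcg-low cells. The groups did not overlap, and the log2 difference was 2.35 ± 0.21 (SE, adjusted p = 0.00283). Dpp4, which cuts glucagon-like peptide 1 and peptide YY, was at 196, 234 and 236 CPM against 51.1, 84.2 and 67.1 CPM, higher by 1.74 ± 0.23 (adjusted p = 0.0187).

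Fap and Dpp4 are also the nearest protein-coding genes on either side of Gcg, a point looked at after their values were seen. On chromosome 2 Fap lies from 62500943 to 62574075, 17.3 kb from Gcg, and Dpp4 from 62330073 to 62412231, 62.3 kb from Gcg on the other side, all on the minus strand. Of 12 annotated genes within 500 kb of Gcg, 5 could be tested, and these 2 were higher (0.145% of all genes were). The next gene beyond Fap, the antiviral RNA sensor Ifih1 at 112 kb, differed by 0.28 ± 0.44 (adjusted p = 0.898), Gca at 181 kb by 0.56 ± 0.53 (adjusted p = 0.813), and the potassium channel Kcnh7 at 210 kb by -0.13 ± 0.97 (adjusted p = 0.980). Across cells rho with Gcg was 0.603, 0.477 and 0.359 for Fap and 0.522, 0.264 and 0.345 for Dpp4, while Ifih1 had 0.200, 0.091 and 0.227. With granin-low cells left out, Fap was higher by 2.11 (adjusted p = 0.00265) and Dpp4 by 1.48 (adjusted p = 0.0276). Fap passed under all 15 alternatives and Dpp4 under 14, the exception being without pool SLX-11179 (adjusted p = 0.0600). Gm13561 overlaps Dpp4 on the other strand, and reads without strand cannot tell them apart. Around Pyy, 16 of 51 annotated genes within 500 kb could be tested in the comparison of Pyy-positive with Pyy-low cells, and 0 were called (0.351% of all genes were called in either direction there).

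Chgb, 1 of 10 granule and processing genes tested, and Ghrl, 1 of 8 other hormone and amine genes, were higher too. Over all genes 0.145% were higher. Chgb was at 13235, 15882 and 23211 CPM in Gcg-high cells and 1391, 1601 and 4913 CPM in Gcg-low cells, higher by 2.94 ± 0.31 (adjusted p = 0.00698). This call was lost with DESeq2 (adjusted p = 0.104) and without the block (adjusted p = 0.0547). Ghrl was at 14180.1, 8116 and 10819 CPM against 4288, 2200 and 4290.2 CPM, higher by 1.65 ± 0.25 (adjusted p = 0.0348). Mboat4, the acyltransferase that makes ghrelin active, rose with it: 146, 30.3 and 26.9 CPM against 2.79, 1.69 and 2.37 CPM, a difference of 4.31 ± 0.51 (adjusted p = 0.0119). Gpr119 was at 95, 78.4 and 112 CPM against 13, 18.8 and 31.3 CPM, higher by 2.22 ± 0.32 (adjusted p = 0.0280). In single cells of the deep pool a Gpr119 read was found in 19 of 20 Gcg-high and 23 of 51 Gcg-low cells. With granin-low cells left out Gpr119 differed by 1.81 (adjusted p = 0.0532), and without pool SLX-11179 it also missed the threshold (adjusted p = 0.0815).

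Some of the higher genes were read in few cells of the shallow pools. Lect2, a secreted protein known as a liver chemotaxin, was higher by 7.32 ± 0.69 (adjusted p = 0.00358), yet had a read in 5 of 19, 8 of 19 and 9 of 20 Gcg-high cells and in 0, 3 and 6 Gcg-low cells. Mboat4 had a read in 4, 5 and 8 Gcg-high cells. Also among the 10 higher genes besides Gcg with the smallest p were Cd177, a membrane protein known from neutrophils (3.28 ± 0.44, adjusted p = 0.0215), Fars2 (1.66 ± 0.24, adjusted p = 0.0283) and Adh1, an alcohol dehydrogenase (1.59 ± 0.23, adjusted p = 0.0319). Without the block, Cd177 (adjusted p = 0.166) and Adh1 (adjusted p = 0.189) missed the threshold, and without pool SLX-11179 Fars2 (adjusted p = 0.0675) and Adh1 (adjusted p = 0.0973) did. Gmds, Anpep, Plb1, Naaladl1 and the calcium-binding Scgn were higher too. All 16 higher genes besides Gcg had groups that did not overlap.

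Pyy itself was not called in this comparison. Its sums were at 2012, 1850.0 and 649 CPM in Gcg-high cells and 1143, 239 and 24.9 CPM in Gcg-low cells, a log2 difference of 2.84 ± 0.67 (adjusted p = 0.181), and the groups overlapped. It was called with DESeq2 (adjusted p = 0.000128), with limma on mean log2 values per cell (difference 4.79, adjusted p = 1.29e-10), with no filter on low counts (adjusted p = 2.77e-25) and without pool SLX-11175 (3.85, adjusted p = 0.0160). Before TMM scaling the Gcg-low sums of pools SLX-11175 and SLX-11179 had 608 and 200.5 CPM of Pyy. Without the 1 cell of each that was highest in Pyy they had 30.9 and 6.12 CPM, against 2105 and 1829 CPM in the Gcg-high sums.

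Of 8 other hormone and amine genes tested, Nts and Tph1 were lower in Gcg-high cells and Ghrl was higher. Over all genes 0.145% were higher and 0.367% lower. Nts was at 600.2, 374 and 24.4 CPM against 52991, 40339.7 and 4507 CPM, and fell by 6.91 ± 0.37 on the log2 scale (adjusted p = 0.000107). Without the block it missed the threshold (adjusted p = 0.389). Its medians per cell were 60.5, 44.4 and 2.19 CPM in Gcg-high and 53.6, 95.8 and 11.5 CPM in Gcg-low cells, so the medians differed far less than the sums. Tph1 was at 0, 0 and 0.348 CPM against 84.1, 89.96 and 222 CPM, and fell by 9.42 ± 0.49 (adjusted p = 0.000107). Of 3 goblet cell markers tested, Tff3 and Fcgbp were lower, and of 5 enterochromaffin and Pzp-cell markers Tph1, Pzp and Cyp2j5 were, where 0.367% of all genes were lower. The other 4 of the 6 lower genes with the smallest p were the immunoglobulin genes Igkj4, Igkv6-23, Ighj2 and Igkv6-15. They were at 0 in both groups of the deep pool and high in the Gcg-low sums of the other pools. All 4 of these calls were lost without the block (adjusted p = 0.725 to 0.761), those of Igkj4, Igkv6-23 and Igkv6-15 with limma (adjusted p = 0.0894 to 0.232), and those of Ighj2 and Igkv6-15 with DESeq2 (adjusted p = 0.116 and 0.118). In all 8 of the 43 lower genes encode immunoglobulin or its joining chain. The 8 immune markers summed to 2.05 to 205 CPM in Gcg-high sums and 236 to 284845 CPM in Gcg-low sums, and granin-low cells were 0 of the Gcg-high cells and 37.8%, 24.6% and 7.84% of the Gcg-low cells, and their part in the lower genes was not tested. With granin-low cells left out, 12 genes (Gcg among them) were higher and 31 lower, and 10 of the higher besides Gcg and 18 of the lower were also called with all cells, and 0 of the 31 were immunoglobulin genes. Nts (difference -7.34) and Tph1 (-9.72) were among the 18.

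**Figure D5:**
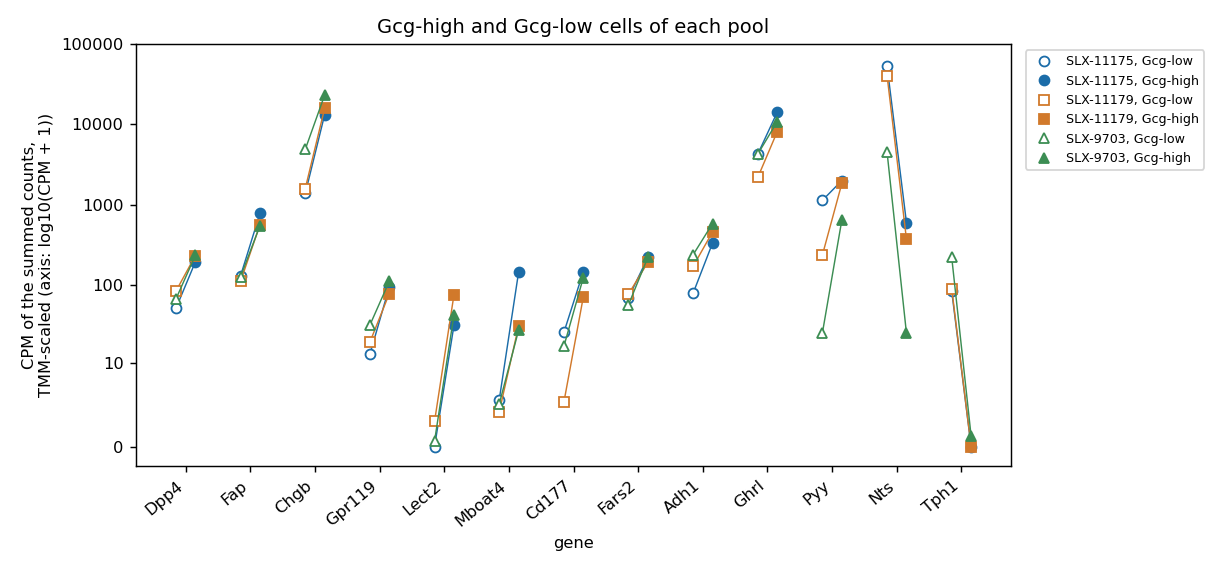
CPM of the summed counts (TMM-scaled, log10(CPM + 1) axis) in Gcg-low (open) and Gcg-high (filled) cells of each pool, joined by lines, for genes described in the text. Fap and Dpp4 rise in all 3 pools, Pyy overlaps between the groups, and Nts and Tph1 fall.

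Few other genes of the lists were called, where 0.145% of all genes were higher and 0.367% lower. Of 10 granule and processing genes tested only Chgb was called (median log2 difference 0.66, against -0.07 over all genes). Pcsk1 differed by 0.73 ± 0.20 (adjusted p = 0.248) and Pam, which amidates peptides, by 1.23 ± 0.22 (adjusted p = 0.0777). With granin-low cells left out, Pcsk1, Cpe and Chga differed by 0.31, 0.49 and 0.65 (adjusted p = 0.545 to 0.714). Chgb kept its call there (2.51, adjusted p = 0.00375). Of 14 transcription factors 0 were called, with Etv1 at 1.25 ± 0.22 (adjusted p = 0.0737) and Isl1 at 1.34 ± 0.27 (adjusted p = 0.103), and over all genes 531 higher genes and 568 lower genes had an unadjusted p under 0.05. Without granin-low cells Etv1, Isl1 and Neurod1 differed by 0.89, 0.93 and 0.20 (adjusted p = 0.250 to 0.791). Of 19 receptors, channels and transporters only Gpr119 was called (median 0.75). Ffar1 differed by 1.05 ± 0.24 (adjusted p = 0.151) and its groups did not overlap. With granin-low cells left out, Ffar1, Abcc8, Gucy2c and Ffar2 differed by 0.64, 0.79, 0.41 and -0.05 (adjusted p = 0.429 to 0.977). With all cells these differences were 1.05, 1.17, 0.77 and 0.36. Of 8 other hormone and amine genes Ghrl was higher, Nts and Tph1 were lower, and Gip differed by -4.04 ± 0.88 (adjusted p = 0.131). Of the marker lists, 0 of 8 enterocyte, 0 of 1 Paneth, 0 of 1 tuft, 0 of 2 stem and cycling and 0 of 5 K-cell genes tested were called, 4 of 6 immune genes were lower, and of 4 L-cell genes Gpr119 was higher.

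Pyy-positive cells were compared with Pyy-low cells (under 10 CPM, 49, 62 and 57 cells) in the same way. Of 11962 genes, 9 (0.0752%) were higher, Pyy among them, and 33 (0.276%) were lower. Pyy chose the sides and stood at 5785, 3351 and 1131 CPM against 1.10, 0 and 0.545 CPM. Gcg was higher, at 72881, 73860.3 and 104667 CPM in Pyy-positive cells and 19651, 15277 and 10929 CPM in Pyy-low cells, by 2.47 ± 0.29 on the log2 scale (adjusted p = 0.0165). The groups did not overlap. It was called under 15 of 16 alternatives and missed the threshold without pool SLX-9703 (difference 2.07, adjusted p = 0.0608). So Gcg was high in part of the Pyy-low cells too, whose sums stood above 10000 CPM in each pool.

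Among the higher genes besides Pyy, the smallest p belonged to Naaladl1. It was at 257, 301 and 192 CPM against 37.6, 69.3 and 39.4 CPM, higher by 2.39 ± 0.24 (adjusted p = 0.00799). Anpep, another peptidase, was at 387, 287 and 282 CPM against 58.9, 100.2 and 82.3 CPM, higher by 1.99 ± 0.27 (adjusted p = 0.0337). The rest were Cyp4b1 (1.80 ± 0.20, adjusted p = 0.0142), Chgb (1.62 ± 0.20, adjusted p = 0.0206), Nr4a2 (1.61 ± 0.21, adjusted p = 0.0278), Bace2 (1.61 ± 0.21, adjusted p = 0.0278) and Gpr119 (1.88 ± 0.27, adjusted p = 0.0413). With granin-low cells left out 5 genes were higher (Pyy, Naaladl1, Anpep, Gcg and Cyp4b1) and 7 lower, while Chgb (adjusted p = 0.0550), Nr4a2 (adjusted p = 0.0984), Bace2 (adjusted p = 0.104) and Gpr119 (adjusted p = 0.184) missed the threshold. At limits of 1000 and 100 CPM of Pyy the call of Naaladl1 was lost (difference 1.82, adjusted p = 0.518). Without pool SLX-9703 adjusted p was 0.0595 for Cyp4b1, 0.0727 for Nr4a2, 0.0770 for Anpep, 0.115 for Bace2, 0.170 for Chgb and 0.260 for Gpr119, so none of these 6 was called there. Chgb, Nr4a2, Bace2 and Gpr119 also lost their calls at those limits (adjusted p = 0.0512 to 0.190), and the same 4 and Anpep did with a minimum of 50000 reads (adjusted p = 0.0548 to 0.163). Nr4a2 was lost without the block as well (adjusted p = 0.0724), and Gpr119 at a mitochondrial limit of 10% (adjusted p = 0.0721). Fap differed by 1.13 ± 0.20 (adjusted p = 0.101) and Dpp4 by 0.51 ± 0.22 (adjusted p = 0.709) between Pyy-positive and Pyy-low cells, and whether this differs from the comparison by Gcg was not tested. Sct differed by 1.22 ± 0.21 (adjusted p = 0.0912), at 42323, 56490.5 and 39732 CPM against 18338, 18275 and 22281 CPM with no overlap, whereas in the comparison by Gcg it differed by -0.73 ± 0.30 (adjusted p = 0.506).

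Lower with Pyy were, by the smallest p, the immunoglobulin genes Igkj4, Igkv6-23, Igkv6-15 and Ighj2, again at 0 in both groups of the deep pool, and 9 of the 33 lower genes were of this kind. The calls of these 4 genes were lost with DESeq2 (adjusted p = 0.0561 to 0.252), with limma (adjusted p = 0.0755 to 0.805) and without the block (adjusted p = 0.902 to 0.946). The 8 immune markers summed to 0.690 to 271 CPM in Pyy-positive sums and 198 to 260423 CPM in Pyy-low sums, and granin-low cells were 34.7%, 21.0% and 7.02% of the Pyy-low cells and 0 of the Pyy-positive cells. With granin-low cells left out, 7 genes were lower and 0 of these were immunoglobulin genes. The cause of the lower calls was not tested. Among the 7 genes that were lower with granin-low cells left out were Pzp (difference -4.32, adjusted p = 0.0218), Fabp5, a fatty acid binding protein of K-cells (-2.46, adjusted p = 0.0340), Gpx3 (-3.81, adjusted p = 0.0498) and the transcription factor Onecut3 (-3.40, adjusted p = 0.0498). Of 9 other hormone and amine genes 0 were called, where 0.0752% of all genes were higher and 0.276% lower, and over all genes 353 higher and 488 lower ones had an unadjusted p under 0.05. Tph1 differed by -3.51 ± 1.02 (adjusted p = 0.386) and Nts by -1.54 ± 0.65 (adjusted p = 0.695), with overlapping groups for both.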

How the data were processed

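Single cells of the upper small intestine of GLU-Venus mice were processed by Smart-seq2, which adds no molecular identifiers and does not mark strand. The authors deposited raw counts for each gene in each cell, not normalized. According to the submitters' processing notes, reads were aligned with GSNAP (2015-09-29) to mm10 and counted with HTSeq (0.5.3p3). Mouse genes held 17.1% of the counts, spike-ins 5.34%, and rows without a gene 77.6%, which stayed out of totals and tests; 4 columns that match no sample were not used. Names came from GENCODE M21 (GRCm38) for 45143 of 46078 identifiers. No 2 cells held identical values. The 38 cells that failed lacked depth (22) or exceeded the mitochondrial limit (16). Each library comes from a sorted well, and doublets were not called. Reads are not molecules, so intervals cover counting error only.

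Correlations were computed over the cells of a pool with scipy 1.17.1. Counts were summed per pool and range (at least 3 cells), scaled by TMM, filtered by filterByExpr and tested with edgeR 4.0.16 (quasi-likelihood test, pool as a block, Benjamini-Hochberg over all genes), with DESeq2 1.42.0 and limma 3.58.1 as alternatives and mclust 6.1.1 for mixtures (log10(CPM + 1), pseudocount 1). Pools are not stated to be separate mice in the labels, so p-values rest on pools. With the pool as a block, they set a difference between groups of cells against its variation from pool to pool. Sums of the same pool deviated from the means of their groups together, with correlations of 0.119 to 0.442 in the Gcg comparison and 0.102 to 0.445 in the Pyy comparison (3 pairs each) against -0.296 to 0.128 and -0.301 to 0.106 for different pools, so the pool was kept as a block. On counts simulated for the Gcg comparison (11714 genes), the edgeR script recovered 34.7% of changes of 2 and 67.7% of changes of 3 on the log2 scale, with 1 false call in 103. The simulated sums shared the same mean profile, with no pool effect and no single high cells. Changes were placed only in genes above a minimum mean count. These figures therefore check the script and do not give the recovery or false calls of the real comparison.

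The text names Gcg and Pyy, the 12 genes highest and 8 lowest in rho with Gcg and 8 and 4 for Pyy, the 10 higher and 6 lower genes with the smallest p by Gcg and 8 and 4 by Pyy, and genes of fixed lists. The members, limits and lists were chosen with earlier results of these data known. Marker lists of enterocytes, goblet, Paneth, tuft, stem, immune, K-cells and L-cells were also summed. The neighbours of Gcg and Pyy and the deep-pool minimum of 750000 reads were added after the data were seen. Some genes that the rule names are not reported here.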

Additional observations from a re-analysis of the deposited data

How the results depend on the processing

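The mean rho of Gcg and Pyy stayed between 0.479 and 0.526 under the 13 alternatives that can change it, including without each pool. The share of Gcg-high cells (23.3%) was 27.1% with a minimum of 50000 reads, 27.5% without granin-low cells, 25.3% with peptide hormones left out of the denominator and 38.8% at a limit of 1000 CPM, and that of Pyy-positive cells (21.3%) was 25.1% without granin-low cells and 9.71% at 1000 CPM. Leaving out a pool gave 22.3% to 24% and 20.0% to 23.4%. Reads per spike-in read were not run for the shares, since a limit in CPM has no counterpart there.

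Genes following Gcg numbered 45 after thinning, 31 without granin-low cells, 138 without peptide hormones in the denominator, 433 per spike-in read, 45 with depth and mitochondrial share held fixed, 20 and 274 at a rho of 0.4 and 0.2, and 45 among genes read in 50% of cells. Leaving out a pool gave 85 to 261. Genes against Gcg numbered 6 without granin-low cells, 3 at a rho of 0.2 and 1 without each pool in turn. Genes following Pyy numbered 14 per spike-in read and by Pearson correlation, 1 and 49 at 0.4 and 0.2, 4 at 50%, and 7 to 21 without a pool. Genes against Pyy numbered 1 with a minimum of 10000 reads, 2 without granin-low cells and 0 to 1 without a pool.

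By Gcg, the 17 higher and 43 lower genes became 143 and 301 with DESeq2, 1229 and 79 with limma on mean log2(CPM + 1) per cell, and 139 and 461 with no filter, while 36 were higher after thinning. Leaving out a pool gave 7 (without SLX-11179) to 41 (without SLX-9703) higher and 43 to 143 (without SLX-9703) lower, with 65 lower without SLX-11175. By Pyy, 9 and 33 became 66 and 216 with DESeq2, 696 and 59 with limma, and 50 and 383 with no filter. They were 4 and 21 at limits of 1000 and 100 CPM, 5 and 7 without granin-low cells, 4 higher with a minimum of 50000 reads and 27 higher after thinning. Leaving out a pool gave 2 (without SLX-9703) to 28 (without SLX-11179) higher and 45 to 171 (without SLX-11179) lower. With limma 94% and 92.2% of calls were higher, against 28.3% and 21.4%, and the median over all genes was 0.28 and 0.16 against -0.07 and -0.10. With no filter the medians were -0.45 and -0.46. The causes were not tested.

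With no replicate block for the pool, 11 genes were higher and 24 lower by Gcg and 7 and 18 by Pyy. In that fit Gcg differed by 5.71 (adjusted p = 0.0306) between other granin-positive and Pzp-positive cells.

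Among ranges, Gcg against Pzp-positive cells lost its call with limma (3.88) and without pools SLX-11175 and SLX-11179 (5.26 to 7.0). Pyy against Pzp-positive cells passed with DESeq2 (4.49), limma (3.40), no filter (4.69) and thinning (5.23), and without pool SLX-9703 (range without a pool 3.42 to 7.66). Against Gip-high cells Gcg passed with DESeq2 (2.21), limma (4.56), no filter (2.44) and thinning (2.57), and Pyy with DESeq2 (6.89), limma (3.56), no filter (7.17), thinning (7.04) and without SLX-9703 (range without a pool 6.41 to 8.63). Both differences from granin-low cells kept their calls. No direction reversed. The deep-pool minimum of 750000 reads was chosen after seeing the data.

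With 3 pools and a sort on a Gcg reporter, shares apply to these sorted cells. Low Pyy was not detectable in the shallow pools, and sums weight deep cells and single high cells.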
